A study of Mus musculus with 6 samples.

Results

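The 9 genes described here are Il4, Il5 and Il13, which encode the type 2 cytokines, Gata3, Il1rl1, Areg and Pparg, which accompany these cytokines in lymphocytes, and Calca and Ramp3, which belong to the calcitonin gene-related peptide (CGRP) system. They were chosen by symbol out of 32285 measured genes, with the UMI counts of these same libraries in view, and each matched 1 Ensembl identifier. Their own levels are therefore given as a description, with no test. The counts come from single-cell RNA sequencing (10x Genomics, read from the 3' end of the transcript) of viable CD45-positive, EpCAM-negative cells sorted from mouse colon tumours that had been picked under a fluorescence microscope. There were 6 libraries: SOX17KO and Control with no time given (the untimed pair), SOX17KO and Control at 1 week, and SOX17KO and Control at 2 weeks. The genotype name points to loss of the transcription factor SOX17. The cells that lost it, the allele, the strain, the age of the mice and the event from which weeks were counted are not given in the sources used here. Tumours of 5 mice were pooled per condition, without a statement that this held at each time, and 1 library stands for each genotype and collection so that differences within a pair have no replicate check.

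Interleukin-4, interleukin-5 and interleukin-13 drive antibody class switching to IgE, eosinophil survival and mucus production, and are made by T helper 2 cells, group 2 innate lymphoid cells, mast cells and basophils. GATA3 is the transcription factor that opens the cytokine locus in T cells and innate lymphoid cells (ILCs), and Il1rl1 encodes ST2, the receptor for the epithelial alarm cytokine interleukin-33. Amphiregulin, encoded by Areg, is a growth factor for epithelium that ST2-bearing regulatory T cells and ILCs release. Pparg encodes a nuclear receptor for lipids that is also used by T helper 2 cells, and Calca encodes the neuropeptide CGRP and the hormone calcitonin from a shared gene. RAMP3 is a membrane partner of the calcitonin receptor-like receptor: with RAMP1 that receptor binds CGRP, and with RAMP3 it mainly binds adrenomedullin.

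Il4, Il13 and Il5 lie in the same stretch of mouse chromosome 11 (build mm10, GENCODE M21 annotation): Il4 at chr11:53602982-53618669 on the minus strand, Il13 at chr11:53631324-53634702 on the minus strand and Il5 at chr11:53720794-53725106 on the plus strand. The nearest ends of Il4 and Il13 are 12.7 kb apart, and the DNA repair gene Rad50, at chr11:53649519-53707319 on the minus strand, fills most of the 86.1 kb between Il13 and Il5. The other 6 genes are protein-coding genes elsewhere: Gata3 at chr2:9857078-9890034, Il1rl1 at chr1:40429570-40465415, Areg at chr5:91139599-91148432, Pparg at chr6:115360951-115490399, Calca at chr7:114631478-114636357 and Ramp3 at chr11:6658521-6677475. Because Il4, Il5 and Il13 were often found in the same cells, the 250 bases before the start of each are shown, from RefSeq (build GRCm38.p6, at chr11:53618666-53618915, chr11:53634703-53634952 and chr11:53720544-53720793, each 5′ to 3′ along the gene's own strand). Capitals mark GATA motifs, searched as AGATAA and as TGATAA, or as AGATAG and as TGATAG, on both strands.
Il4: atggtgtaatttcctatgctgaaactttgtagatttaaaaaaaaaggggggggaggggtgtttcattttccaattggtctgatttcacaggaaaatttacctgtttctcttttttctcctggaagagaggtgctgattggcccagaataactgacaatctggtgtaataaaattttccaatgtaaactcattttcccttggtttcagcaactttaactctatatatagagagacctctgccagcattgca
Il13: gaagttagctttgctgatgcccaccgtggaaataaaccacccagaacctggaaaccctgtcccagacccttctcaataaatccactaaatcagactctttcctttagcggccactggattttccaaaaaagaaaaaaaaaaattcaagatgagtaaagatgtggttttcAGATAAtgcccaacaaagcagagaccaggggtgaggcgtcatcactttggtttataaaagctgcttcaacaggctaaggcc
Il5: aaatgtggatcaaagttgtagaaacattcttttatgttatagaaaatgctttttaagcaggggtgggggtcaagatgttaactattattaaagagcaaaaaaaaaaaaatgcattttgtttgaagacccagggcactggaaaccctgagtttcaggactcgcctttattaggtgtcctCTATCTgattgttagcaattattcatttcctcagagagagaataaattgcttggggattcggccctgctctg
The Il13 and Il5 windows held 1 match each, the one of Il5 on the opposite strand, and the Il4 window held none. Of 32851 promoters in the same table, 26.5% held at least 1 match in a window of this length.

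Cells were put into classes by marker UMIs, with none of the 9 genes used: CD4 T, CD8 T, regulatory T, ILC, mast and basophil cells, 8105 of the 32201 cells kept. In the order untimed, 1 week and 2 weeks, the SOX17KO libraries had 373, 21 and 224 CD4 T cells, and the Control libraries 551, 15 and 405. CD8 T cells numbered 2876, 25 and 281 in SOX17KO and 1219, 11 and 1042 in Control, and regulatory T cells 25, 36 and 52 in SOX17KO and 466, 27 and 97 in Control. ILCs numbered 88, 18 and 15 in SOX17KO and 71, 11 and 6 in Control, mast cells 18, 37 and 9 in SOX17KO and 12, 16 and 10 in Control, and basophils 1, 16 and 5 in SOX17KO and 4, 16 and 6 in Control. The 5 untimed cells gated as basophils all held the mast cell protease gene Cpa3 and 4 of them the mast cell receptor gene Kit. All 5 also held the basophil genes Mcpt8 and Cd200r3, both used in the gate. The mast cell protease gene Mcpt4 was in 2 of the 4 Control cells and not in the SOX17KO cell. Their label is thus unsure, and they are left out of the statements on basophils. Among the other basophils Cpa3 was in 5 of 16 and 3 of 5 SOX17KO cells (1 and 2 weeks) and 1 of 16 and 2 of 6 Control cells. ILCs had no Cd3e UMI, a gene the gate used, and 33 of the 88 in the untimed SOX17KO library and 26 of the 71 in the untimed Control library had a UMI of the T cell receptor gene Trbc2. Median depth was lower in the untimed SOX17KO library than in its Control, at 3101 and 4149 UMIs per CD4 T cell and 3310.5 and 5569 per CD8 T cell. Any 2 libraries shared 4 to 11 cell barcodes. The targeted gene itself, Sox17, had 4, 20 and 3 UMIs in the SOX17KO libraries and 7, 11 and 10 in the Control libraries, too few in these sorted immune cells to check the labels.

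Basophils and mast cells held Il4 and Il13 but no Il5, while CD4 T cells and ILCs held all 3 cytokines. Levels are given as CPM, the gene's UMIs scaled by all UMIs of that class in that library. In basophils Il4 stood at 539 CPM in the 1-week SOX17KO library (55 UMIs in 7 of 16 cells) and 2936 CPM in the 1-week Control library (211 UMIs in 13 of 16 cells). The 1-week ratio of SOX17KO to Control was 0.184 (95% interval 0.134 to 0.248, an exact binomial interval that, like every interval of a single library or pair here, covers counting error only). Mast cell genes differed between these cells too, with Cpa3 in 5 of 16 SOX17KO and 1 of 16 Control cells and Mcpt4 in 2 and 0, and their part in the ratio was not tested. At 2 weeks 5 SOX17KO basophils held 69 Il4 UMIs and 6 Control basophils 128, and the ratio of 0.449 turned to 2.42 without the cell richest in Il4 in each library. Il13 in basophils was at 137 CPM in the 1-week SOX17KO library and 403 CPM in its Control.

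In mast cells, Il4 stood at 248, 685 and 168 CPM in the SOX17KO libraries (untimed, 1 week, 2 weeks), against 851, 621 and 1863 CPM in the Control libraries. The 2-week Control value rests on 1 cell with 22 UMIs, and in the 1-week pair, which had the most mast cells, the ratio was 1.10 (0.575 to 2.26). Il13 stood at 74.3, 289 and 41.9 CPM in SOX17KO mast cells, against 142, 478 and 2202 CPM in Control mast cells, where 1 cell held all 26 UMIs of the 2-week value. Il5 had 0 UMIs in the 102 mast cells of the 6 libraries and in the basophils of the 1-week and 2-week libraries. For the mast cells of the 1-week SOX17KO library, the largest group, 3 counts in place of 0 of 37 cells allow a share of up to 8.11% of cells with an Il5 UMI. At a median of 1357 UMIs per cell this limits detection, not expression.

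ILCs had more Il4 UMIs in SOX17KO than in Control in each pair, from few cells. The SOX17KO libraries held 26, 32 and 10 UMIs in 16, 6 and 2 cells, and the Control libraries 2, 3 and 0 UMIs in 2, 1 and 0 cells. These are 102, 178 and 124 CPM in SOX17KO and 8.44, 30.4 and 0 CPM in Control. The ratio was 12.1 (3.02 to 105) in the untimed pair and 5.83 (1.83 to 29.8) at 1 week. At 2 weeks 1 SOX17KO cell held 9 of the 10 UMIs, and no ratio is given. In the 1-week SOX17KO library 1 cell held 23 of the 32 UMIs, and without the richest cell of each library Il4 was at least 1.64-fold higher there, taking 3 counts in place of the Control 0. ILC markers differed as well in the untimed pair: Hs3st1 was detected in 23 of 88 SOX17KO and 9 of 71 Control cells, Klrg1 in 19 and 9, and Ncr1, a gene of other ILC groups and natural killer cells, in 7 and 19. Their part in the Il4 difference was not tested. Il5 stood at 13, 3 and 3 UMIs in SOX17KO ILCs and 9, 0 and 0 in Control ILCs, and Il13 at 6, 2 and 0 in SOX17KO and 0, 1 and 0 in Control. Only in the untimed pair did both libraries hold 20 or more ILCs. After thinning each cell to 1000 UMIs, 6 of 80 SOX17KO and 0 of 59 Control ILCs of that pair kept an Il4 UMI.

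In CD4 T cells the 3 cytokines sat in a small number of cells, some of them with many UMIs. In the untimed pair, 24 of 373 SOX17KO cells (6.43%, exact 95% interval 4.17 to 9.42) and 15 of 551 Control cells (2.72%, 1.53 to 4.45) had a UMI of Il4, Il5 or Il13. At 2 weeks these were 27 of 224 SOX17KO cells (12.1%, 8.10 to 17.1) and 38 of 405 Control cells (9.38%, 6.73 to 12.7). At 1 week none of 21 SOX17KO and none of 15 Control cells had one, which, with 3 counts in place of 0, allows a share of up to 14.3% and 20% of cells with a UMI of a gene. The shares of both genotypes were higher at 2 weeks than in the untimed pair, and in both of these pairs the SOX17KO share was higher than the Control share, with intervals that overlapped. Depth differed as well: the positive and negative cells had medians of 3667 and 3024 UMIs in untimed SOX17KO, 5689 and 4125.5 in untimed Control, 6355 and 5848 in 2-week SOX17KO, and 8213 and 5323 in 2-week Control. None of the 714 B cells of the 6 libraries, whose median depth was 2630.5 to 4162 UMIs, held a UMI of any of the 3 genes.

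The cytokines did not share a direction between genotypes in CD4 T cells. Il4 had 105 UMIs in 12 SOX17KO cells and 5 UMIs in 4 Control cells of the untimed pair, at 80.3 and 1.78 CPM. At 2 weeks it had 24 UMIs in 11 SOX17KO cells and 329 UMIs in 19 Control cells, at 14.4 and 112 CPM. The ratio of SOX17KO to Control was thus 45.1 (18.7 to 142) in the untimed pair and 0.129 (0.0812 to 0.195) at 2 weeks. At 2 weeks the shares of cells with Il4 lay close together, at 4.91% in SOX17KO and 4.69% in Control, so that the ratio there follows the UMIs per positive cell. In the untimed SOX17KO library 1 cell held 80 of the 105 UMIs, and without the richest cell of each library the untimed ratio was 17.9 (5.47 to 92.7) and the 2-week ratio 0.134 (0.0769 to 0.22).

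Il5 went the other way at 2 weeks. It had 233 UMIs in 9 SOX17KO cells (140 CPM) and 94 UMIs in 11 Control cells (32.1 CPM), a ratio of 4.37 (3.43 to 5.61). In the untimed pair it had 5 UMIs in 5 SOX17KO cells and 13 UMIs in 5 Control cells, a ratio of 0.827 (0.231 to 2.47) that counting error alone spans. Il13 had 72 UMIs in 15 SOX17KO cells and 12 UMIs in 7 Control cells of the untimed pair, and 299 UMIs in 21 SOX17KO cells and 420 UMIs in 30 Control cells at 2 weeks. Its level was 55.0 CPM in SOX17KO and 4.27 CPM in Control of the untimed pair, a ratio of 12.9 (6.95 to 26.1). At 2 weeks it was 180 CPM in SOX17KO and 143 CPM in Control, a ratio of 1.26 (1.08 to 1.46). Where more than 5 cells were positive, the 5 richest held 69.0% to 93.3% of the UMIs of a cytokine in these 4 libraries. Il4 in untimed Control and Il5 in both untimed libraries had 5 positive cells or fewer, so that 100% there is fixed by the count. After thinning to 1000 UMIs per cell, Il13 was left in 6 of 372 SOX17KO and 1 of 543 Control cells of the untimed pair and in 13 of 224 SOX17KO and 17 of 404 Control cells at 2 weeks. CD8 T cells and regulatory T cells had few cytokine UMIs: at most 10 of Il4, 4 of Il5 and 4 of Il13 in any library.

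**Figure D1:**
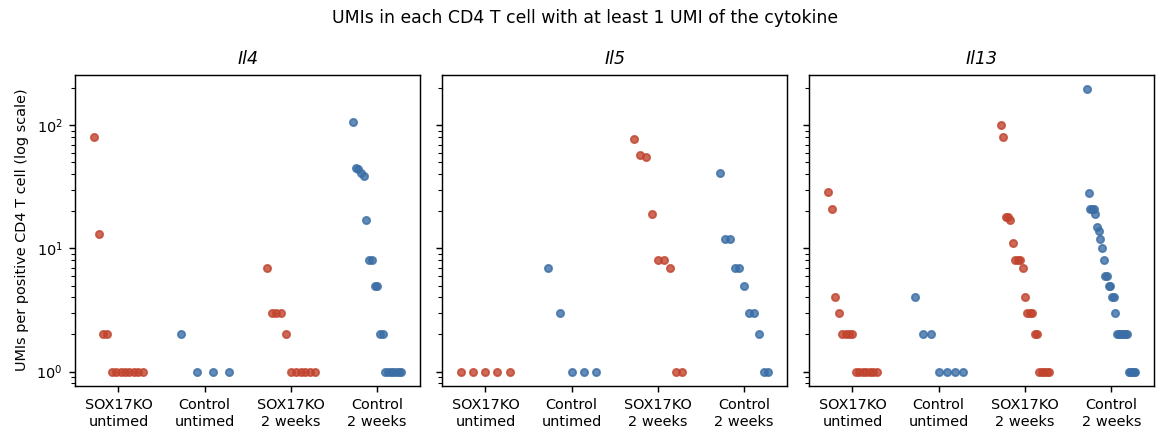
UMIs of Il4, Il5 and Il13 (log scale) in each CD4 T cell with at least 1 UMI, in the untimed and 2-week libraries. Each point is a cell, SOX17KO left of Control within each collection. Most positive cells held few UMIs. For Il4 the richest cell held 80 UMIs in untimed SOX17KO and 106 in 2-week Control. For Il13 it held 101 in 2-week SOX17KO and 199 in 2-week Control.

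Il13 was found in most CD4 T cells that held Il5 at 2 weeks. It was detected in 7 of 9 Il5-positive SOX17KO cells and 10 of 11 Il5-positive Control cells, against 14 of 215 and 20 of 394 of the remaining cells. Of Il4-positive cells at 2 weeks, 7 of 11 in SOX17KO and 12 of 19 in Control held Il13, and 4 of 11 and 7 of 19 held Il5. In the untimed SOX17KO library 5 of 12 Il4-positive cells held Il13, against 10 of 361 cells without Il4. In untimed Control 4 cells held Il4, 5 held Il5 and 7 held Il13. There 15 cells held any of these genes, so that little was shared. Cells of 1 library are not replicates, and no test was made on these shares.

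The regulators were found more often in the CD4 T cells that held a cytokine UMI than in those that did not. Gata3 was detected in 83.3% of positive and 42.4% of negative cells in untimed SOX17KO, 86.7% and 47.6% in untimed Control, 81.5% and 55.3% in 2-week SOX17KO, and 84.2% and 54.0% in 2-week Control. Pparg was detected in 14 of 24 positive and 40 of 349 negative cells in untimed SOX17KO, 4 of 15 and 61 of 536 in untimed Control, 12 of 27 and 26 of 197 in 2-week SOX17KO, and 20 of 38 and 54 of 367 in 2-week Control. Il1rl1 was detected in 13 of 24 positive and 20 of 349 negative cells in untimed SOX17KO, 3 of 15 and 60 of 536 in untimed Control, 9 of 27 and 42 of 197 in 2-week SOX17KO, and 12 of 38 and 43 of 367 in 2-week Control. The order of positive above negative was the same in all 4 libraries for these 3 genes, which were chosen with these cells in view, so nothing is read from it. Positive cells were also the deeper in all 4 libraries, and the part of depth in these shares was not tested. Areg was found more often in positive cells in 3 libraries and in 20.0% of positive and 20.3% of negative cells in untimed Control. Calca followed the cytokines in the 2-week pair, with 4 of 27 positive and 2 of 197 negative cells in SOX17KO and 5 of 38 and 5 of 367 in Control, but not in untimed SOX17KO, where 0 of 24 positive and 14 of 349 negative cells held it.

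**Figure D2:**
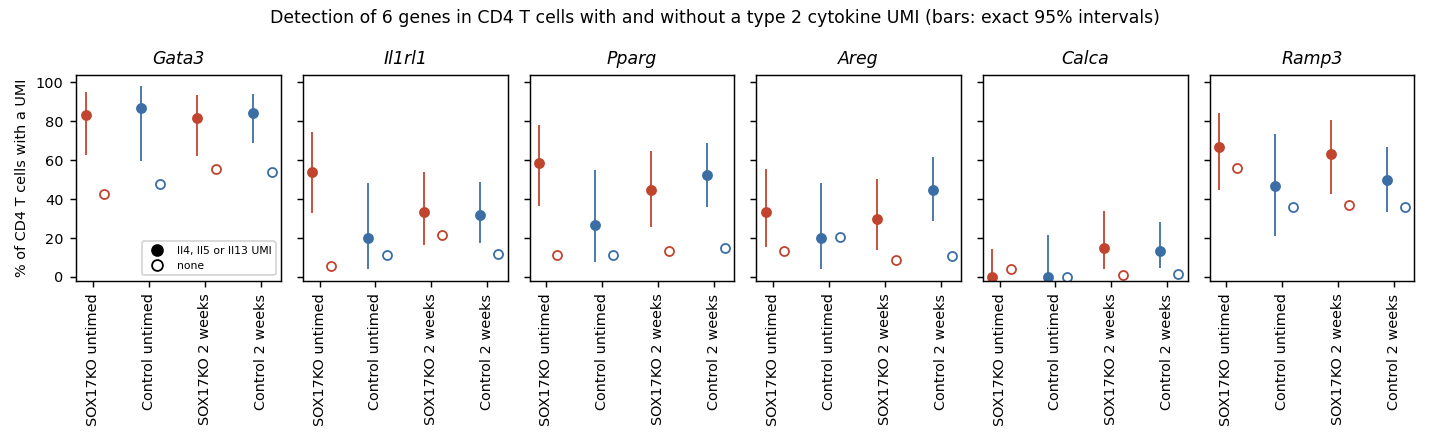
Percent of CD4 T cells with a UMI of Gata3, Il1rl1, Pparg, Areg, Calca and Ramp3 among cells with (filled, with exact 95% intervals for counting error) and without (open) a UMI of Il4, Il5 or Il13, SOX17KO in red and Control in blue. Gata3 was at 81.5% to 86.7% of positive cells and 42.4% to 55.3% of negative cells.

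To ask what else marked these cells, UMIs were summed over positive and over negative CD4 T cells in the 4 libraries with at least 10 positive cells, and compared with edgeR's quasi-likelihood test with library as a block. This comparison was added after the data had been seen, and Il4, Il5 and Il13 were left out of it. Of 8853 genes tested, 113 passed an adjusted p of 0.05 (1.28%), 69 higher and 44 lower in positive cells, and 897 had an unadjusted p under 0.05. As a description, the log2 differences of the 6 members tested were 2.59 for Pparg, 2.44 for Il1rl1, 1.70 for Gata3, 2.53 for Areg, 3.02 for Calca and 0.39 for Ramp3. Pparg, Il1rl1 and Gata3 were among the 113, and since the 9 genes were chosen with these cells in view, nothing is read from that.

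Of 60 further type 2 and CGRP pathway genes on a list, 38 were tested, and 30 of these were higher in positive cells. At an edgeR adjusted p under 0.05, 4 were called higher and none lower. Il10, an anti-inflammatory cytokine, stood at 235, 74.8, 425 and 274 CPM in positive cells of untimed SOX17KO, untimed Control, 2-week SOX17KO and 2-week Control, against 55.6, 41.6, 41.0 and 80.6 CPM in negative cells (log2 difference 2.21 ± 0.30 SE, n = 4 libraries, edgeR adjusted p 0.00133). Csf2, which encodes the growth factor GM-CSF, stood at 304, 513, 608 and 469 CPM in positive and 117, 137, 336 and 156 CPM in negative cells (1.45 ± 0.18, edgeR adjusted p 0.000767). Both genes were higher in positive cells in 4 of 4 libraries, on a list made with earlier results of these data known. Positive cells were also the deeper in these libraries, and the part of depth in these differences was not tested. Il2ra, the high-affinity chain of the interleukin-2 receptor, rose by 1.18 ± 0.18 (edgeR adjusted p 0.00488). The eosinophil attractant Ccl11 rose by 2.78 ± 0.52 (edgeR adjusted p 0.0179), but had UMIs in the 2-week libraries only, at 106 and 112 CPM in positive cells of SOX17KO and Control and 29.4 and 9.67 CPM in negative cells.

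Outside that list, the genes named here were picked after their values had been seen. Ltb4r1, a leukotriene B4 receptor, rose by 3.30 ± 0.44 (edgeR adjusted p 0.00113), Vdr, the vitamin D receptor, by 2.73 ± 0.43 (0.00504), and Plin2, a lipid droplet coat protein, by 1.74 ± 0.31 (0.0103). Cyp11a1, the enzyme that starts steroid synthesis from cholesterol, was at 88.2, 0, 15.2 and 38.2 CPM in positive and 0.829, 0, 0.683 and 0.403 CPM in negative cells of untimed SOX17KO, untimed Control, 2-week SOX17KO and 2-week Control. Its log2 difference was 5.75 ± 1.08 (edgeR adjusted p 0.0176). Rad50, whose gene lies inside the cytokine locus, rose by 1.04 ± 0.23 (edgeR adjusted p 0.0396). The lymph node homing receptor gene Ccr7 fell by 2.75 ± 0.50 and S1pr1, the receptor by which lymphocytes leave lymph nodes, fell by 3.91 ± 0.63 (edgeR adjusted p 0.0130 for Ccr7 and 0.00528 for S1pr1). Fibroblast genes moved with the cytokines too: Col1a1, at 0, 0, 1539 and 467 CPM in positive and 0, 1.84, 731 and 176 CPM in negative cells of the same 4 libraries, rose by 1.31 ± 0.22 (edgeR adjusted p 0.00833). Col1a2 and Sparc rose by 1.08 ± 0.24 and 0.97 ± 0.22 (edgeR adjusted p 0.0406 and 0.0444). Of 12 alternatives, Sparc was called in 3 and Rad50 and Col1a2 in 6 each. The part of fibroblast RNA in these differences, and in Ccl11, was not tested. No gene passed without the library block (538 at an unadjusted p under 0.05), and leaving out untimed SOX17KO left 37 calls, untimed Control 61, 2-week SOX17KO 71 and 2-week Control 74.

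Gata3 was highest in ILCs and was shared by the T cell classes. In ILCs it stood at 979, 316 and 722 CPM in SOX17KO (untimed, 1 week, 2 weeks) and 586, 254 and 422 CPM in Control, higher in SOX17KO in each pair, with ratios of 1.67 (1.35 to 2.07), 1.25 (0.767 to 2.08) and 1.71 (0.909 to 3.5). CD4 T cells had 348, 218 and 267 CPM in SOX17KO and 231, 143 and 240 CPM in Control. Regulatory T cells had 204, 126 and 296 CPM in SOX17KO and 304, 185 and 300 CPM in Control. CD8 T cells of the untimed pair had 83.8 CPM in SOX17KO and 69.4 CPM in Control, while 2-week SOX17KO had 54.4 CPM and its Control 67.4 CPM. Basophils of the 1-week and 2-week libraries held 0 Gata3 UMIs, and mast cells at most 1 per library.

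Il1rl1 ran highest in mast cells, at 1313, 3175 and 3016 CPM in SOX17KO and 1323, 3201 and 5250 CPM in Control. The untimed and 1-week ratios were 0.993 (0.617 to 1.63) and 0.992 (0.744 to 1.33). At 2 weeks the mast cell ratio of 0.574 became 0.973 without the richest cell of each library. In ILCs Il1rl1 stood at 709, 172 and 535 CPM in SOX17KO and 422, 142 and 70.3 CPM in Control, and all 19 cytokine-positive ILCs of untimed SOX17KO held it. The 2-week ILC values rest on 43 UMIs over 15 SOX17KO cells and 2 UMIs over 6 Control cells. Without the richest cell of each library 16 UMIs and 1 UMI were left, a ratio of 5.66 (0.88 to 237). Among T cells Il1rl1 was highest in regulatory T cells, at 241, 170 and 355 CPM in SOX17KO and 266, 203 and 184 CPM in Control, with a 2-week ratio of 1.93 (1.46 to 2.57). CD4 T cells had 91.0, 88.5 and 86.7 CPM in SOX17KO and 61.5, 41.0 and 43.7 CPM in Control, higher in SOX17KO in each pair. The ratios were 1.48 (1.16 to 1.88), 2.16 (0.687 to 8.93) and 1.98 (1.55 to 2.54), the 1-week one from 21 and 15 cells. Basophils had 598 CPM in SOX17KO and 362 CPM in Control at 1 week.

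Pparg had 0 UMIs in the mast cells of every library and in the basophils of the 1-week and 2-week libraries. ILCs had 176, 33.3 and 137 CPM in SOX17KO and 97.0, 30.4 and 0 CPM in Control. In CD4 T cells it stood at 123 CPM in SOX17KO and 46.6 CPM in Control of the untimed pair, a ratio of 2.64 (2.09 to 3.35). At 2 weeks SOX17KO and Control had 78.3 and 78.9 CPM, a ratio of 0.992 (0.794 to 1.24). Outside the 6 classes, monocytes and macrophages held 27.5% of all Pparg UMIs.

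Areg was high in regulatory T cells and ILCs. Regulatory T cells had 650, 348 and 335 CPM in SOX17KO (70, 88 and 119 UMIs in 12, 18 and 17 cells) and 629, 1405 and 638 CPM in Control (2002, 297 and 298 UMIs in 265, 16 and 40 cells). The ratio was 1.03 (0.802 to 1.31) in the untimed pair, 0.248 (0.193 to 0.315) at 1 week and 0.526 (0.422 to 0.653) at 2 weeks. The shares of regulatory T cells with an Areg UMI were 48.0%, 50% and 32.7% in SOX17KO and 56.9%, 59.3% and 41.2% in Control, and in the 1-week Control library 5 of 27 cells held 81.1% of the UMIs. ILCs had 611, 605 and 361 CPM in SOX17KO and 321, 112 and 527 CPM in Control, with ratios of 1.91 (1.44 to 2.54), 5.42 (2.91 to 11.2) and 0.684 (0.355 to 1.37), where 1 Control cell held all 15 UMIs of the 2-week library. CD4 T cells had 206, 76.7 and 173 CPM in SOX17KO and 203, 133 and 196 CPM in Control, with ratios of 1.01 (0.873 to 1.17), 0.575 (0.246 to 1.35) and 0.883 (0.764 to 1.02). In the 2-week libraries 1 SOX17KO cell held 158 of the 288 UMIs and 1 Control cell 208 of the 575, and without these cells the ratio was 0.625 (0.507 to 0.765). In CD8 T cells Areg stood at 62.3 CPM in SOX17KO and 41.3 CPM in Control of the untimed pair and at 2.14 and 7.88 CPM at 2 weeks, ratios of 1.51 (1.33 to 1.71) and 0.272 (0.0855 to 0.665).

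Ramp3 stood far apart between the genotypes in the CD8 T cells of the untimed pair. It had 3710 UMIs in 1372 of 2876 SOX17KO cells and 280 UMIs in 130 of 1219 Control cells, at 300.0 and 32.2 CPM, a ratio of 9.31 (8.24 to 10.6). At 2 weeks it stood at 15.4 CPM in SOX17KO (36 UMIs in 19 of 281 cells) and 17.5 CPM in Control (153 UMIs in 97 of 1042 cells), a ratio of 0.882 (0.596 to 1.27). At 1 week 1 of 25 SOX17KO and 5 of 11 Control cells held it, with 1 and 10 UMIs. The 5 richest cells held 1.83% of the untimed SOX17KO UMIs, so that it was spread over many cells. After thinning to 1000 UMIs, 648 of 2856 SOX17KO cells (22.7%) and 32 of 1173 Control cells (2.73%) of the untimed pair kept a Ramp3 UMI. Of B cells, 1 of 264 in untimed SOX17KO and 0 of 218 in untimed Control did. Before thinning the SOX17KO CD8 T cells were the shallower, and the part of depth in the Ramp3 difference was not tested. The CD8 T cells of that pair differed in other genes at the same time: the cytotoxic protease gene Gzmb was detected in 455 of 2876 SOX17KO and 660 of 1219 Control cells, and the part of such cell states in the Ramp3 difference was not tested.

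Ramp3 was also higher in the untimed SOX17KO library in other classes. CD4 T cells had 501 CPM in SOX17KO and 159 CPM in Control, a ratio of 3.15 (2.79 to 3.56), and ILCs 427 and 152 CPM, a ratio of 2.81 (1.91 to 4.22). At 2 weeks CD4 T cells had 148 CPM in SOX17KO and 127 CPM in Control, a ratio of 1.17 (0.988 to 1.37). At 1 week they had 112 and 195 CPM, a ratio of 0.575 (0.288 to 1.15). ILCs had 144 CPM in SOX17KO and 233 CPM in Control at 1 week, a ratio of 0.618 (0.339 to 1.13). At 2 weeks ILCs had 373 and 527 CPM, and the ratio of 0.708 (0.369 to 1.42) turned to 2.36 without the richest cell of each library. Regulatory T cells had less Ramp3 in SOX17KO in each pair, at 27.8, 7.91 and 16.9 CPM in SOX17KO and 66.9, 85.2 and 23.5 CPM in Control, though from 3, 2 and 6 UMIs in SOX17KO. The ratios were 0.416 (0.0852 to 1.23), 0.0928 (0.0104 to 0.388) and 0.718 (0.218 to 2.12), so that counting error alone spans the untimed and 2-week ones.

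Calca, the CGRP gene, followed Ramp3 in untimed CD8 T cells. It had 369 UMIs in 189 SOX17KO cells and 25 UMIs in 16 Control cells, at 29.8 and 2.88 CPM, a ratio of 10.4 (6.92 to 16.2), and at 2 weeks 6 UMIs in 4 SOX17KO cells and 14 UMIs in 7 Control cells, a ratio of 1.61 (0.506 to 4.45). Of Calca-positive CD8 T cells in untimed SOX17KO, 110 of 189 (58.2%) held Ramp3, against 1262 of 2687 (47.0%) of the others. In CD4 T cells Calca turned between the pairs, with 49 UMIs in 14 SOX17KO cells and 5 UMIs in 1 Control cell of the untimed pair, and 14 UMIs in 6 SOX17KO cells and 164 UMIs in 10 Control cells at 2 weeks. The ratios were 21.1 (8.44 to 67.8) and 0.151 (0.0805 to 0.26), and without the richest cells the 2-week ratio was 0.401 (0.18 to 0.808). ILCs had Calca at 180, 5.55 and 124 CPM in SOX17KO and 131, 142 and 70.3 CPM in Control. The 1-week values rest on 1 UMI over 18 SOX17KO cells and 14 UMIs over 11 Control cells, 13 of them in 1 cell. The 2-week Control value rests on 2 UMIs over 6 cells. Regulatory T cells had 0 UMIs in the 3 SOX17KO libraries and 24, 0 and 2 UMIs in the Control libraries. Mast cells held 9, 0 and 21 Calca UMIs in SOX17KO and 2, 0 and 2 in Control. Counts per gene do not separate the CGRP and calcitonin transcripts of Calca.

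**Figure D3:**
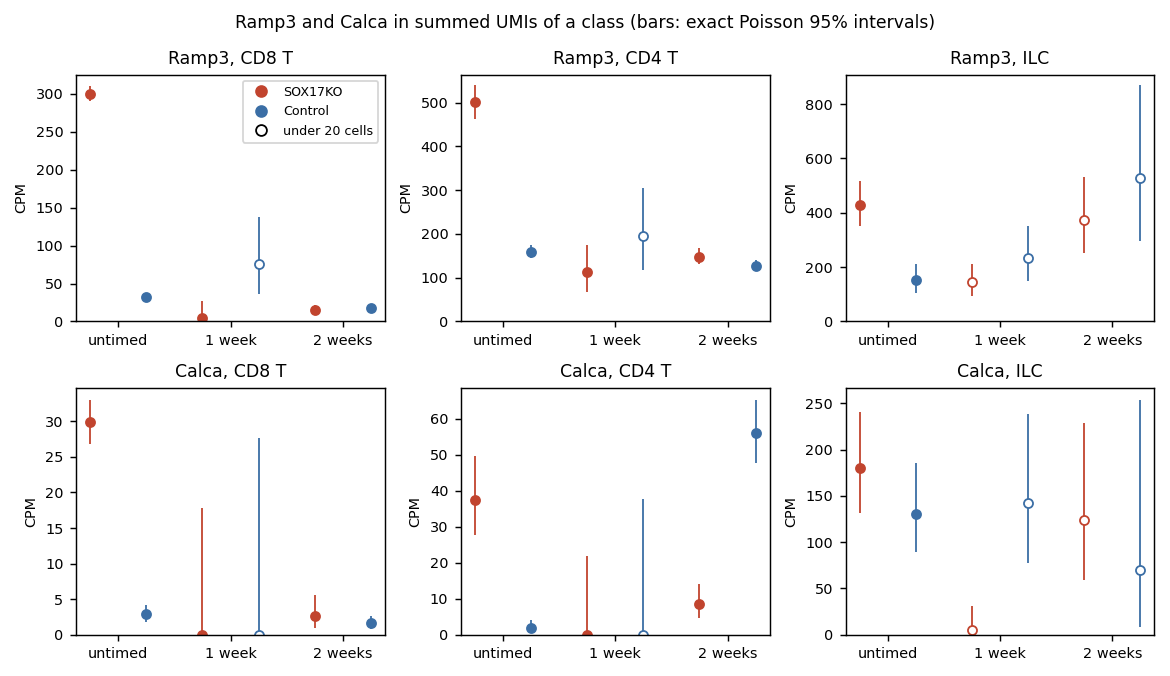
CPM of Ramp3 (top) and Calca (bottom) in CD8 T cells, CD4 T cells and ILCs of each collection, SOX17KO in red left of Control in blue, with exact Poisson 95% intervals. Open points are classes of under 20 cells. Ramp3 in untimed CD8 T cells stood at 300.0 CPM in SOX17KO and 32.2 CPM in Control, while at 2 weeks both were under 20 CPM.

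The partners that make a CGRP or adrenomedullin receptor were present in the same classes. Calcrl, the receptor itself, stood at 65.5 CPM in SOX17KO and 49.0 CPM in Control CD8 T cells of the untimed pair, and at 38.1 and 29.9 CPM at 2 weeks. Ramp1, the CGRP partner, stood at 20.1 and 22.3 CPM in untimed SOX17KO and Control CD8 T cells, and at 68.0 and 122 CPM in the CD4 T cells. Ramp1 in CD8 T cells thus lay close together in the pair in which Ramp3 did not. Ramp2 had at most 21 UMIs in any T cell class.

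**Figure D4:**
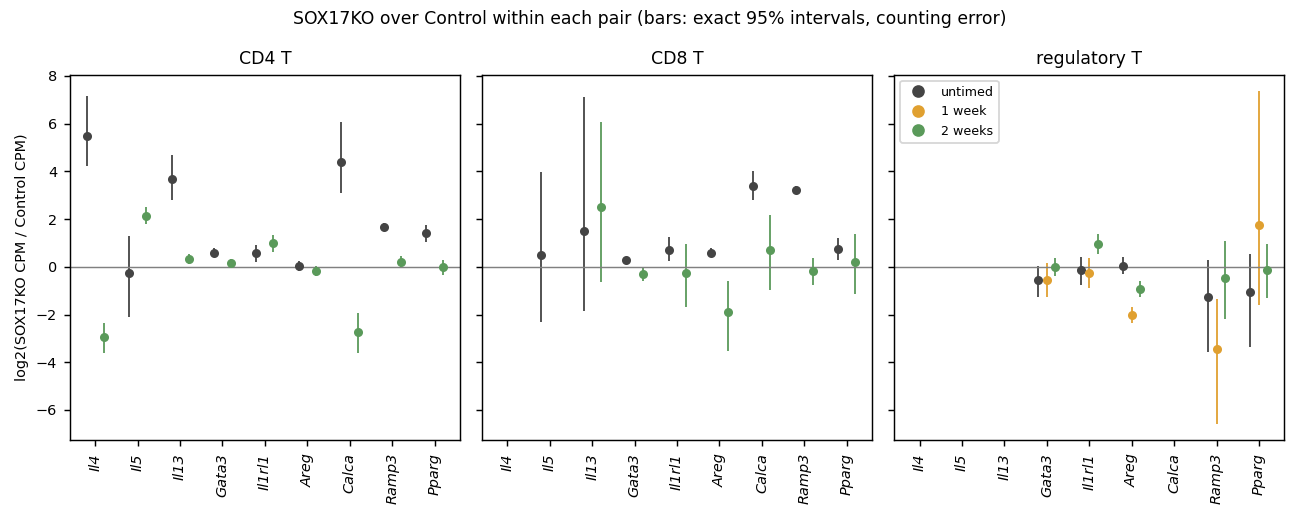
Log2 ratio of SOX17KO to Control CPM for each of the 9 genes in CD4 T, CD8 T and regulatory T cells, by pair, where both libraries held 20 or more cells and at least 1 UMI (bars: exact 95% intervals, counting error only). Il4 and Calca in CD4 T cells lay above 0 in the untimed pair and below 0 at 2 weeks, and Ramp3 in CD8 T cells was high in the untimed pair only.

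Across the pairs, genes were tested between genotypes on UMIs summed per library with collection as a block, in the classes with at least 20 cells per library: CD4 T and CD8 T cells in the untimed and 2-week pairs and regulatory T cells in all 3. The edgeR quasi-likelihood test called 0 of 10426 genes in CD4 T cells (0%, 866 at an unadjusted p under 0.05), 0 of 12793 in CD8 T cells (0%, 861), while regulatory T cells had 34 calls of 5791 genes (0.587%, 482). DESeq2 called 41, 18 and 3. None of the 9 genes was called in any class. That contrast belongs to those in view when the genes were chosen, and nothing is read from the count. All 9 were tested in CD4 T cells, 6 in CD8 T cells, and regulatory T cells left 5. As values, Ramp3 had a log2 fold change of 1.77 in CD8 T cells and 1.01 in CD4 T cells. Areg had one of -0.97 in regulatory T cells, and the 2 pairs' opposite Il4 values in CD4 T cells averaged to 0.54.

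None of the pathway genes passed in any class, of 40 tested in CD4 T cells, 46 in CD8 T cells and 32 among regulatory T cells (10, 7 and 7 at an unadjusted p under 0.05 in edgeR, and 0, 0 and 0 called by DESeq2). By size, the leading differences in CD4 T cells were in Ccl17, a ligand of the type 2 chemokine receptor Ccr4, at 0 and 0 CPM in untimed and 2-week SOX17KO against 49.1 and 10.9 CPM in Control, in the inhibitory receptor Klrg1, at 5.35 and 3.61 CPM against 39.8 and 13.3 CPM, and in the cytokine Lif, at 2.29 and 3.61 CPM against 9.24 and 20.8 CPM. Their edgeR adjusted p values were 0.387, 0.451 and 0.451. In CD8 T cells they were Retnla, at 24.4 and 8.99 CPM in SOX17KO and 0 and 1.94 CPM in Control, Vipr2, a receptor for vasoactive intestinal peptide, at 2.51 and 2.14 CPM in SOX17KO and 49.6 and 4.23 CPM in Control, and Ramp2, all with an edgeR adjusted p of 0.687. In regulatory T cells they were Ccl17, at 0, 3.95 and 0 CPM in SOX17KO and 54.6, 47.3 and 8.56 CPM in Control (edgeR adjusted p 0.121), Chil3, at 0, 253 and 70.5 CPM in SOX17KO and 0.628, 52.0 and 0 CPM in Control (0.0804), and Arg1, at 0, 672 and 2.82 CPM in SOX17KO and 13.2, 137 and 0 CPM in Control (0.307). Retnla, Chil3 and Arg1 are genes of macrophages and neutrophils, and their source in these sums was not tested. The source of Ccl17 was not tested either. In CD8 T cells Ccl17 stood at 26.9 CPM in SOX17KO and 21.1 CPM in Control of the untimed pair, and at 0 and 0.114 CPM at 2 weeks.

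Over 57 units of 1 class in 1 library with at least 20 cells, Il4 was most like Il13 (Pearson r 0.90 on log2(CPM + 1)), then Cyp11a1 (0.77) and Grik2 (0.76), and Il13 was next most like Dgki (0.73). Gata3 ran with the T cell signalling genes Zap70 (0.93) and Camk4 (0.92). Ramp3 ran with Il7r (0.82), Paxbp1 (0.81) and S100a4 (0.73), and Calca with Hlf (0.69), Il5 (0.68) and Gldc (0.66). Areg ran with Gm13684 (0.80), Gm15511 (0.78) and Ccr4 (0.78), Pparg with Plcl1 (0.71), Tent5a (0.70) and Ptgir (0.68), Il1rl1 with Tent5a (0.76), Tmem158 (0.71) and Msrb3 (0.67), and Il5 with Gm27166 (0.73) and the T cell cytokine gene Il21 (0.69). The units share libraries and depth, and the values describe the order of levels among classes and libraries.

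The 6 classes did not hold all UMIs of the 9 genes. They held 80.3% of the 472 Il5 UMIs, 72.4% of the 1308 Il13 UMIs, 67.4% of the 1675 Il4 UMIs and 65.9% of the 1257 Calca UMIs. For Gata3 the share was 52.9%, for Il1rl1 52.4%, for Areg 47.6%, for Ramp3 44.0% and for Pparg 31.2%. T cells that no gate took held 19.2% of the Il13 and 16.6% of the Ramp3 UMIs. In the untimed pair Ramp3 in these T cells stood at 372 CPM in SOX17KO and 74.5 CPM in Control, and in gamma-delta T cells at 519 and 290 CPM.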

How the data were processed

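The data were 6 matrices, 1 per library, holding UMI counts per gene and cell barcode. The authors made these deposited counts with Cell Ranger, version 6.0.1 per the submitters' processing notes and 7.0.1 per the file headers, on mm10. The annotation release and intron setting are not given in the sources used here. Libraries held 2937 to 6871 cells after filtering and 18281322 to 52150180 UMIs before it. Cells with under 200 genes, over 10% mitochondrial UMIs or the highest doublet scores (0.8% per 1000 barcodes) were left out. Classes came from marker UMIs. The members and gene lists were chosen with earlier results of these data known. UMIs were summed per class and library and fitted with edgeR 4.0.16 (quasi-likelihood, R 4.3.3), with collection as a block. The titles give the same time to both libraries of each timed pair. Those of the untimed pair give no time, so they do not show that its libraries were collected together. DESeq2 1.42.0 was an alternative. Exact intervals are Poisson for CPM, Clopper-Pearson for shares and conditional binomial for ratios. P-values between genotypes set the mean genotype difference against its disagreement between collections. Those of the cytokine-positive comparison set the mean difference of positive and negative cells against its disagreement between libraries. Each library is a pool. Named genes are the 9 members, pathway genes called or among the 3 with the largest change in a fitted class, and the 3 genes most like each member. A gene that this rule names is not reported here. Genes outside that rule are said to be picked after their values were seen. Alternatives covered scaling, filters, gates, doublets, thinning, the block and leaving out libraries.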

Additional observations from a re-analysis of the deposited data

Results flagged for a closer look

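In 4 cases the pairs with counting intervals clear of 0 pointed in opposite directions, SOX17KO over Control, and the difference between the pairs was not tested. Il4 in CD4 T cells had a log2 ratio of 5.5 in the untimed pair and -2.96 at 2 weeks. Calca in CD4 T cells had 4.4 in the untimed pair and -2.73 at 2 weeks, where 1 Control cell held 120 of 164 UMIs. Areg in CD8 T cells had 0.59 in the untimed pair and -1.88 at 2 weeks, and Gata3 in CD8 T cells 0.27 and -0.31. Each value compares 1 library with 1 library.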

How the results depend on the processing

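No reported value that had been called changed direction under the alternatives that were run, but of 259 values of named genes in the fits 47 lost their call and 11 gained one. Genes called between genotypes in CD4 T cells numbered 0 in edgeR, 41 with DESeq2, 4 with DESeq2 size factors, 439 with no filter on low counts (7 pathway genes), 3 with no doublets removed, 3 with a 5% mitochondrial filter and 26 with stricter gates. In CD8 T cells they numbered 0, against 18 with DESeq2 and 56 with no filter (2 pathway genes). In regulatory T cells they numbered 34, against 3 with DESeq2 and 181 with no filter (6 pathway genes), and with no doublets removed 1 pathway gene was called. Without the replicate block 0 genes were called in each class (330, 313 and 140 at an unadjusted p under 0.05 in edgeR). Leaving out a pair in regulatory T cells gave 0 to 177 genes and 0 to 3 pathway genes: 177 without the untimed pair and 0 without the 1-week or the 2-week pair. The comparison of cytokine-positive cells, 113 genes, gave 260 with no filter (9 pathway genes), 75 with stricter gates, 24 after thinning, which left only 2 libraries with enough positive cells, so that fewer libraries and thinning cannot be told apart, 37 to 74 with 1 library left out and 0 genes and 0 pathway genes without the replicate block. Of the pair ratios, 250 of 284 moved by less than their interval, and the gene most like a member was the same in 7 of 18 cases. Stricter gates left regulatory T cells with too few cells, and leaving out a pair left no residual degrees of freedom in CD4 and CD8 T cells, so these were not run. The causes were not tested. Few cells per class, pooled mice and 1 library per condition limit all values, and intervals cover counting error only.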
